A study of Sus scrofa with 2 samples.

Results

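The VEGF and angiopoietin genes described here were the receptor genes FLT1, KDR and TEK, the receptor phosphatase gene PTPRB, and the ligand genes VEGFA, ANGPT1 and ANGPT2. They were listed by symbol, and all 7 were found among the 31908 genes of the matrices. The question was which class of pancreatic nuclei carried the RNA of each ligand and which that of each receptor, in each library.

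Nuclei were taken from the pancreas of 1 wild-type (WT) Bama pig and 1 PIGinH11 pig, a transgenic Bama pig that carries GIPRdn, hIAPP and PNPLA3 I148M under promoters specific to beta cells or liver. Both pigs were 18 months old, had control diet until 6 months of age, and then ate a high-fat and high-sucrose diet (HFHSD) for 12 months. This diet was made of control diet (53%) with added sucrose (37%) and pork lard (10%), and no pig without HFHSD was compared here. One piece of tissue from a similar location was sequenced per pig, with droplet-based single-nucleus RNA sequencing, in which each RNA molecule is counted once by its unique molecular identifier (UMI). Each group therefore had 1 library, no spread between animals could be estimated, no test between the groups was made, and the genotype cannot be told apart from any other difference between the 2 pigs or the 2 libraries.

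VEGFA is a secreted growth factor that binds the tyrosine kinase receptors FLT1 (VEGFR1) and KDR (VEGFR2) on endothelial cells, and KDR carries most of the signal for endothelial growth and permeability while FLT1 binds VEGFA tightly and signals weakly. ANGPT1 activates the receptor TEK (TIE2) and keeps vessels stable, and ANGPT2 acts on TEK as a weaker or opposing ligand depending on the context. PTPRB (VE-PTP) is a membrane phosphatase that removes phosphate from TEK and from KDR. In the pancreas, fenestrated capillaries run through the islets and around the acini, and epithelial cells are known to supply them with VEGFA.

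After filters, 11923 WT and 13152 PIGinH11 nuclei were retained, with a median of 2976 and 1111 UMIs per nucleus. The WT library was thus the deeper, and 60 barcodes occurred in both libraries. Nuclei were clustered without the 7 genes and were named by marker genes, so a class is called endothelial-like and so on, and its borders may differ from those of the study. The endothelial-like class held 222 WT and 360 PIGinH11 nuclei, the mural-like class (pericytes and smooth muscle, which wrap vessels) 31 and 83, the stellate-like class 167 and 233, the ductal-like class 2209 and 2323, and the acinar-like class 8621 and 8988. A further 17 WT and 122 PIGinH11 nuclei of endothelial clusters carried so much acinar RNA that acinar markers matched them best, and they were kept out of the endothelial-like class. Levels are UMIs per 1000000 UMIs of a class (CPM), with exact 95% intervals that cover counting error only, and they are compared between classes or libraries, never between genes.

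On Sscrofa11.1, FLT1 (ENSSSCG00000009320) lies at chr11:5620698-5797095, KDR (ENSSSCG00000008844) at chr8:41809116-41856379, TEK (ENSSSCG00000005122) at chr1:195938177-196052294 and PTPRB (ENSSSCG00000000504) at chr5:34656460-34794838. VEGFA (ENSSSCG00000001695) lies at chr7:38746393-38762282, ANGPT1 (ENSSSCG00000006035) at chr4:29925203-30233434 and ANGPT2 (ENSSSCG00000015753) at chr15:37544177-37600925. The RefSeq annotation of this build puts ANGPT2 wholly inside MCPH1 (chr15:37455186-37674971), a gene of chromosome condensation, and whether the counting used strand is not given in the sources used here. For ANGPT2, the level of MCPH1 is therefore given beside the results.

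All 4 receptor-side genes had their highest level in endothelial-like nuclei in both libraries, as 4.02% of the 15566 genes with at least 100 UMIs did. ANGPT1 and ANGPT2 had theirs in mural-like nuclei in both libraries, as 2.2% of these genes did. VEGFA was highest in ductal-like nuclei, with a much smaller difference from the rest, and was nearly lacking in endothelial-like nuclei. The highest levels of ligands and receptors thus lay in different classes, while lower levels of KDR in ductal-like and of TEK in mural-like nuclei lay beside those of a ligand.

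**Figure D1:**
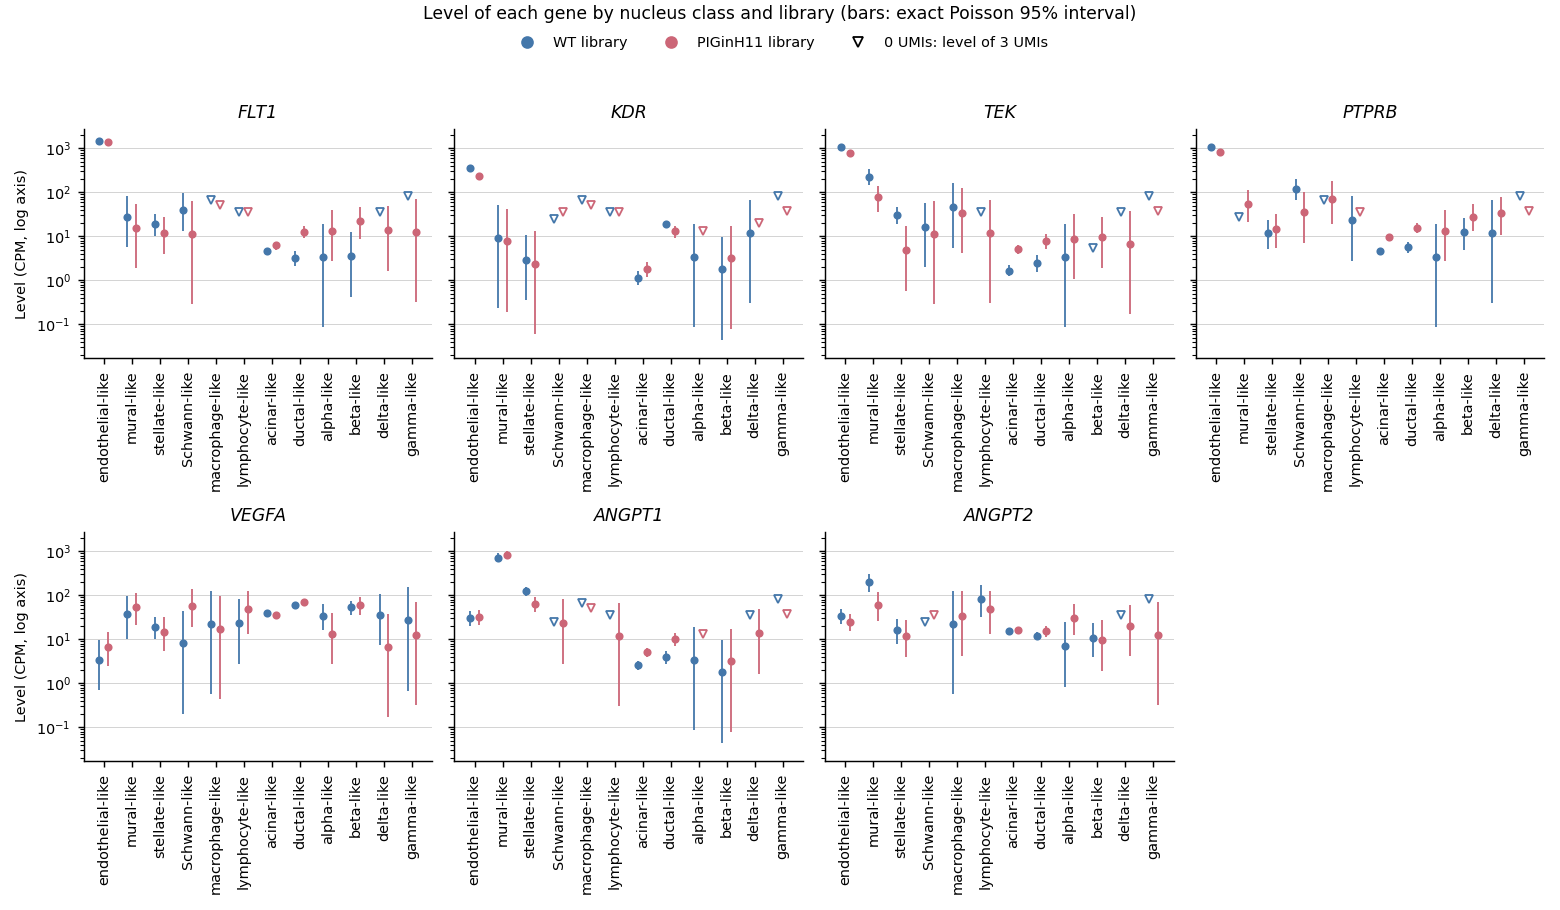
Level of each of the 7 genes in 12 classes of nuclei, in CPM on a log axis, with 1 point per library and bars for the exact Poisson 95% interval. Open triangles mark classes without a UMI and are drawn at the level that 3 UMIs would give. The 4 receptor-side genes stand highest in endothelial-like nuclei and ANGPT1 in mural-like nuclei. VEGFA spreads over epithelial and other classes, with a low level in endothelial-like nuclei.

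FLT1, the receptor with the tightest hold on VEGFA, had 1501 CPM in WT endothelial-like nuclei (1341 UMIs, interval 1422 to 1584) and 1420 CPM in PIGinH11 endothelial-like nuclei (1253 UMIs, interval 1342 to 1500). All other nuclei together had 6.26 and 15.1 CPM, so the endothelial-like level was 240-fold and 94.2-fold higher. For each gene, these other nuclei include the 17 WT and 122 PIGinH11 endothelial nuclei that were set aside. Those had 890 CPM of FLT1 in WT (70 UMIs) and 827 CPM in PIGinH11 (133 UMIs). They had 280 and 143 CPM of KDR, 585 and 417 CPM of TEK, and 877 and 473 CPM of PTPRB. A UMI of FLT1 was found in 93.7% of WT and 71.9% of PIGinH11 endothelial-like nuclei (median depth 3921.5 and 1888.5 UMIs). Acinar-like nuclei, which should lack the gene, had shares of 1.42% and 0.935% (median depth 2813 and 1163 UMIs). With every nucleus thinned to 500 UMIs the endothelial-like shares were 50.5% and 41.7%, and the acinar-like shares 0.313% and 0.456%. The next class differed between libraries and rested on few UMIs (Schwann-like, 5 UMIs in WT, and beta-like, 7 UMIs in PIGinH11), and its interval stayed far below that of the endothelial-like class. In WT stellate-like nuclei, FLT1 had 13 UMIs, and they came from only 2 of 167 nuclei. No FLT1 UMI was found in macrophage-like nuclei, with an interval up to 83.6 CPM in the WT and 63.7 CPM in the PIGinH11 library.

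KDR, the main signalling receptor for VEGFA, had 349 CPM in WT (312 UMIs, interval 312 to 390) and 240 CPM in PIGinH11 endothelial-like nuclei (212 UMIs, interval 209 to 275). The other nuclei had 5.3 and 4.97 CPM, which made the endothelial-like level 65.9-fold and 48.3-fold higher. A UMI of KDR was found in 48.2% of WT and 28.6% of PIGinH11 endothelial-like nuclei, and in 0.383% and 0.278% of acinar-like nuclei. After thinning, the endothelial-like shares were 18.5% and 10%. Of the 4 receptor-side genes, KDR had the smallest share of its UMIs in endothelial-like nuclei, beyond counting error only in WT. They held 58.4% of its UMIs in the WT and 67.9% in the PIGinH11 library. The PIGinH11 interval (62.5% to 73.1%) includes the PTPRB share of 69.7%. Ductal-like nuclei held 30% and 13.8% of the KDR UMIs, against 20% and 15.8% of all UMIs.

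TEK, the angiopoietin receptor, had 1087 CPM in WT (971 UMIs, interval 1020 to 1158) and 782 CPM in PIGinH11 endothelial-like nuclei (690 UMIs, interval 724 to 842). These levels were 268-fold and 79.8-fold above those of all other nuclei, which had 4.06 and 9.8 CPM. A UMI of TEK was found in 85.6% and 68.1% of endothelial-like nuclei and in 0.557% and 0.812% of acinar-like nuclei. With every nucleus thinned, the endothelial-like shares were 36% in WT and 30.8% in PIGinH11, and the acinar-like shares 0.209% and 0.445%. Mural-like nuclei ranked second in both libraries, with 224 CPM in WT (24 UMIs in 12 of 31 nuclei, interval 144 to 333) and 76.6 CPM in PIGinH11 (10 UMIs in 6 of 83 nuclei, interval 36.7 to 141). In WT, 10 of the 24 UMIs came from 1 nucleus. After thinning, 2 of 31 WT and 2 of 83 PIGinH11 mural-like nuclei had a TEK UMI. The mural-like intervals overlapped those of macrophage-like nuclei, which ranked next with 2 UMIs in each library. The mural-like level was thus below the endothelial-like level in each library without overlap of the intervals. The 14 listed endothelial markers summed to 663 and 774 CPM in mural-like nuclei, with 5 of the 14 without a UMI in each library, and their part in the TEK level was not tested. None of these mural-like nuclei had a UMI of a second receptor-side gene.

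PTPRB, the phosphatase that acts on TEK, had 1096 CPM in WT (979 UMIs, interval 1028 to 1167) and 836 CPM in PIGinH11 endothelial-like nuclei (738 UMIs, interval 777 to 899). The other nuclei had 7 and 16 CPM, and the folds were 157 and 52.4. A UMI of PTPRB was found in 92.3% and 68.3% of endothelial-like and in 1.57% and 1.45% of acinar-like nuclei. With every nucleus thinned, the endothelial-like shares were 36% in WT and 36.7% in PIGinH11, and the acinar-like shares 0.383% and 0.812%. The lower share in PIGinH11 endothelial-like nuclei was thus not seen at equal depth. In WT, Schwann-like nuclei ranked next, with 121 CPM from 15 UMIs, but their level was 34.9 CPM from 3 UMIs in PIGinH11. PTPRB had no UMI in the 31 WT mural-like nuclei (interval up to 34.4 CPM), and 53.6 CPM from 7 UMIs in the 83 PIGinH11 mural-like nuclei.

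Single endothelial-like nuclei often carried all 4 receptor-side genes. In the WT library, 84 of 222 nuclei (37.8%) had a UMI of each of FLT1, KDR, TEK and PTPRB, and 1 nucleus had none of them. In the PIGinH11 library, 59 of 360 nuclei (16.4%) had all of them and 21 nuclei had none. This share depended on depth, and thinning to 500 UMIs left 1.8% of WT and 0.556% of PIGinH11 nuclei with all 4 genes. Of the acinar-like nuclei, 6 in WT and 2 in PIGinH11 had 2 of the 4 genes and none had more.

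VEGFA, the main VEGF ligand, had 61.5 CPM in WT ductal-like nuclei (526 UMIs, interval 56.3 to 67) and 70.2 CPM in PIGinH11 ductal-like nuclei (233 UMIs, interval 61.4 to 79.8). Beta-like nuclei followed with 53 CPM (30 UMIs, interval 35.8 to 75.7) and 59.6 CPM (19 UMIs, interval 35.9 to 93.1), which did not differ from the ductal-like level beyond counting error. Under 4 alternative settings, ductal-like nuclei ranked 2 or 3 instead in 1 of the libraries. Small classes outside the epithelium followed in PIGinH11, with intervals that overlapped the ductal-like one. These were Schwann-like (58.1 CPM, 5 UMIs), mural-like (53.6 CPM, 7 UMIs) and lymphocyte-like nuclei (48.1 CPM, 4 UMIs). WT mural-like nuclei had 37.3 CPM from 4 UMIs. Acinar-like nuclei had 39.1 CPM in WT (1169 UMIs, interval 36.9 to 41.4) and 36.4 CPM in PIGinH11 (527 UMIs, interval 33.3 to 39.6), below the ductal-like interval in both libraries. VEGFA was the most evenly spread of the 7 genes, with ductal-like nuclei only 1.69-fold and 2.05-fold above all other nuclei. Endothelial-like nuclei had 3.36 CPM in WT (3 UMIs, interval 0.693 to 9.81) and 6.8 CPM in PIGinH11 (6 UMIs, interval 2.49 to 14.8), below the acinar-like interval in both libraries. A UMI of VEGFA was found in 19.5% of WT and 8.74% of PIGinH11 ductal-like nuclei and in 1.35% and 1.39% of endothelial-like nuclei, although the latter were the deeper class. After thinning, the ductal-like shares were 3.17% and 3.7%.

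By number of molecules, most VEGFA RNA was acinar. Acinar-like nuclei held 66.1% of the VEGFA UMIs in WT and 62.8% in PIGinH11, against 69.8% and 69.1% of all UMIs. Ductal-like nuclei held 29.7% and 27.8% of the VEGFA UMIs, against 20% and 15.8% of all UMIs, so that they were over-represented and the acinar-like nuclei were close to their share. Within the ductal-like class, VEGFA had 67.2 and 91.4 CPM in the largest cluster, cluster 3, and 58.7 and 54.9 CPM in cluster 5.

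**Figure D2:**
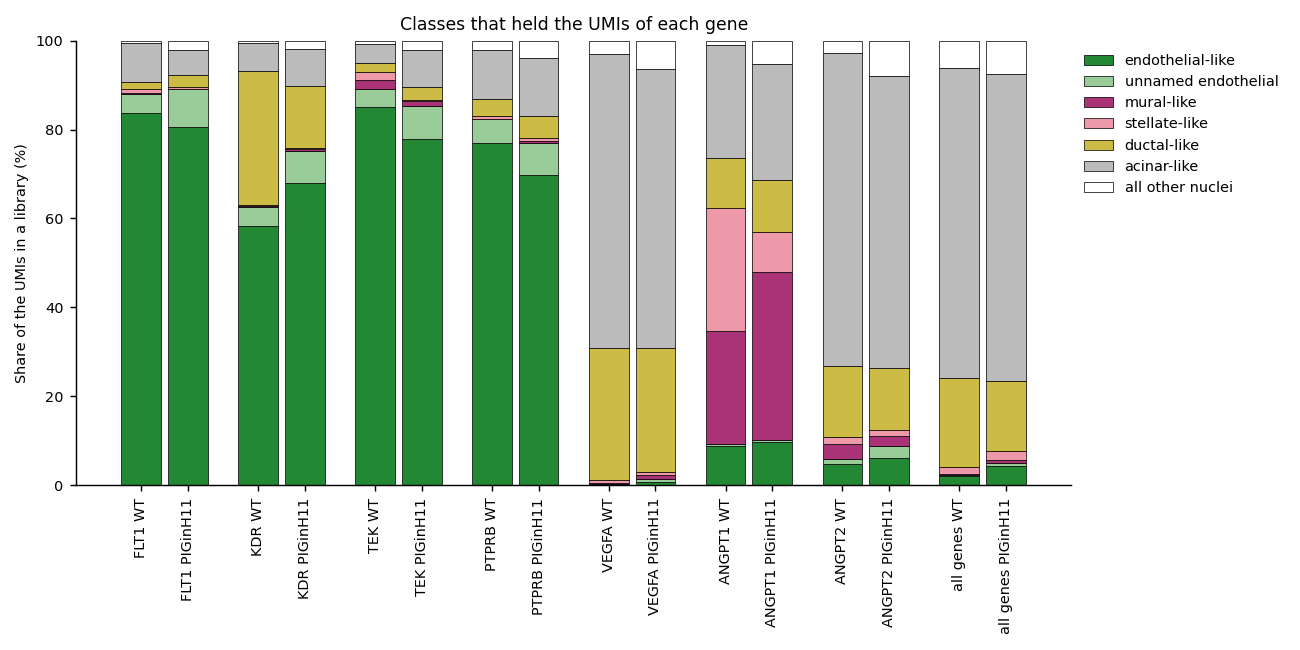
Share of the UMIs of each gene, and of all genes, held by each class in a library, in percent. Each bar is 1 gene in 1 library and adds up to 100%. Endothelial-like nuclei hold most UMIs of the 4 receptor-side genes, and acinar-like nuclei most of those of VEGFA and ANGPT2. Acinar-like nuclei also hold 69.8% of all UMIs in WT and 69.1% in PIGinH11. In WT, ANGPT1 is divided between mural-like, stellate-like and acinar-like nuclei. In PIGinH11, mural-like (37.8%) and acinar-like nuclei (26%) hold more of it than ductal-like (11.8%), endothelial-like (9.72%) or stellate-like nuclei (9.03%).

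ANGPT1, the activating ligand of TEK, had 719 CPM in WT (77 UMIs, interval 567 to 898) and 835 CPM in PIGinH11 mural-like nuclei (109 UMIs, interval 686 to 1007), or 136-fold and 97.3-fold over all other nuclei. A UMI was found in 67.7% of WT and 37.3% of PIGinH11 mural-like nuclei, and in 29% and 27.7% after thinning. Stellate-like nuclei ranked second with 123 CPM (84 UMIs) and 62.7 CPM (26 UMIs), followed by endothelial-like nuclei with 30.2 CPM (27 UMIs) and 31.7 CPM (28 UMIs). The mural-like interval lay above that of every other class in each library. The stellate-like and endothelial-like intervals were apart in WT and overlapped in PIGinH11. Although mural-like nuclei had by far the highest level, they held only 25.4% and 37.8% of the ANGPT1 UMIs, since the class is small. Acinar-like nuclei, at 2.58 and 5.17 CPM, held 25.4% and 26% of them, against 69.8% and 69.1% of all UMIs.

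ANGPT2, the context-dependent ligand of TEK, gave the least certain order. Mural-like nuclei had 196 CPM in WT (21 UMIs in 14 of 31 nuclei, interval 121 to 300) and 61.3 CPM in PIGinH11 (8 UMIs in 7 of 83 nuclei, interval 26.5 to 121). Lymphocyte-like nuclei followed with 81.5 CPM (7 UMIs) and 48.1 CPM (4 UMIs), and their intervals overlapped those of mural-like nuclei in both libraries. Endothelial-like nuclei, the textbook source of ANGPT2, had 33.6 CPM (30 UMIs, interval 22.7 to 47.9) and 24.9 CPM (22 UMIs, interval 15.6 to 37.7). Their interval lay below that of mural-like nuclei in WT and overlapped it in PIGinH11. The endothelial nuclei that were set aside had 102 CPM in WT (8 UMIs, 7 of them from 1 nucleus, interval 43.9 to 200). In PIGinH11 these nuclei had 56 CPM (9 UMIs, interval 25.6 to 106), and both intervals overlapped the mural-like ones. Acinar-like nuclei had 15.1 and 16.1 CPM and held 70.4% and 65.7% of the ANGPT2 UMIs, against 69.8% and 69.1% of all UMIs. MCPH1, within which ANGPT2 lies, had 157 and 171 CPM in acinar-like, 131 and 138 CPM in mural-like, 85.1 and 86.1 CPM in endothelial-like and 372 and 120 CPM in lymphocyte-like nuclei, and its part in the ANGPT2 counts was not tested. Of the 32 MCPH1 UMIs of WT lymphocyte-like nuclei, 23 came from 1 nucleus. The levels of both genes were also compared between clusters 1 and 2 of acinar-like nuclei, and acinar clusters 4, 6 and 7 are not shown. Cluster 2 was the deeper, with a median of 3775 against 1534 UMIs in WT and 1975 against 833 UMIs in PIGinH11. The part of MCPH1 was not tested by this pair either. From cluster 1 to cluster 2, ANGPT2 went from 5.81 to 16.2 CPM in WT and from 4.7 to 21.9 CPM in PIGinH11. MCPH1 went from 146 to 167 CPM in WT and from 168 to 169 CPM in PIGinH11.

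Pairs among ANGPT1, ANGPT2 and TEK were at times found in the same mural-like nucleus, and nuclei with all 3 genes were not counted. Taken singly, ANGPT1 was found in 21, ANGPT2 in 14 and TEK in 12 of 31 WT nuclei. In the 83 PIGinH11 nuclei, the genes were found in 31, 7 and 6. Whether the pairs were more frequent than these single numbers would give was not tested. In WT, 10 of 31 nuclei had both ANGPT1 and ANGPT2, and 8 had both ANGPT1 and TEK. In PIGinH11, these numbers were 3 and 1 of 83 nuclei, whose median depth was lower (2935 UMIs in WT and 1281 UMIs in PIGinH11).

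Outside the endothelial-like class, receptor UMIs per nucleus were set against those of 14 endothelial markers. Of these, 12 were used to name the class. PLVAP and CD34 were not, as they are among the listed endothelial genes known to respond to VEGF. In acinar-like nuclei, the 14 markers stood at 0.147% to 3.92% of their number per endothelial-like nucleus in WT (median 0.543%) and at 0.344% to 6.38% in PIGinH11 (median 0.846%). FLT1 stood at 0.271% and 0.288%, KDR at 0.281% and 0.491%, TEK at 0.133% and 0.43%, and PTPRB at 0.371% and 0.754%. These values lay within or below the range of the markers and below its median in both libraries, so that no expression in acinar-like nuclei is read from them. Where these UMIs came from was not tested.

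KDR stood higher in ductal-like nuclei than the other 3 receptor-side genes. Its UMIs per ductal-like nucleus stood at 5.15% of those per endothelial-like nucleus in WT (interval 4.23% to 6.26%) and at 3.14% in PIGinH11 (interval 2.21% to 4.38%), while FLT1 stood at 0.202% and 0.519%, TEK at 0.217% and 0.584% and PTPRB at 0.493% and 1.09%. The markers there had a median of 0.587% and 0.984%, and their range, which reached 6.86% and 5.98% through PECAM1, includes the KDR values. KDR had 18.7 CPM in WT ductal-like nuclei (160 UMIs, interval 15.9 to 21.8) and 12.9 CPM in PIGinH11 (43 UMIs, interval 9.37 to 17.4), against 1.14 and 1.79 CPM in acinar-like nuclei, without overlap in either library.

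In WT, the KDR level was not even among ductal-like nuclei. Cluster 11, with 165 WT and 95 PIGinH11 nuclei and led by SCTR (the secretin receptor), COL4A3, LGR5, KRT7 and PKHD1, had 91 CPM in WT (47 UMIs in 28 nuclei, interval 66.8 to 121). Clusters 3 and 5 had 10.8 and 16.5 CPM there, with intervals of 7.62 to 14.9 and 13 to 20.6. In PIGinH11 cluster 11 had 15.5 CPM from 2 UMIs (interval 1.88 to 56), clusters 3 and 5 had 11.8 and 13.7 CPM, and the clusters did not differ beyond counting error. The summed endothelial markers stood at 141, 127 and 134 CPM in WT clusters 3, 5 and 11, and their part in the KDR level was not tested. Cluster 11 was singled out after its values were seen. After thinning, a KDR UMI was found in 4.85% of its WT nuclei, against 0.304% and 0.413% in clusters 3 and 5, and in none of its 95 PIGinH11 nuclei. VEGFA was present in the same cluster at 48.4 CPM in WT (25 UMIs) and 38.7 CPM in PIGinH11 (5 UMIs). Over the whole ductal-like class, 29 WT and 7 PIGinH11 nuclei had a UMI of both VEGFA and KDR. Taken singly, VEGFA was found in 431 WT and 203 PIGinH11 nuclei of this class, and KDR in 116 and 39.

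**Figure D3:**
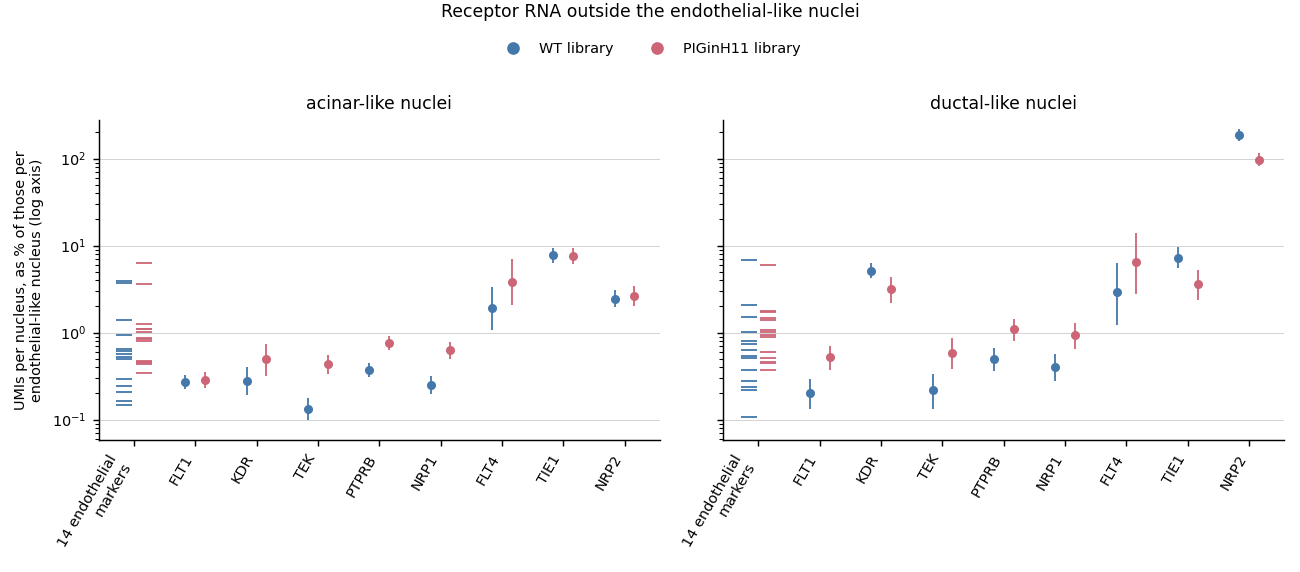
UMIs per acinar-like (left) or ductal-like (right) nucleus as a percentage of those per endothelial-like nucleus, on a log axis, with exact 95% intervals. Dashes are the 14 endothelial markers and points are receptor genes, in 2 colours for the libraries. FLT1, TEK and PTPRB lie among or just below the markers, while KDR in ductal-like nuclei stands at 5.15% and 3.14% and NRP2 there at 188% and 97.2%. TIE1 in acinar-like nuclei stands at 7.73% and 7.53%.

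The endothelial-like nuclei were clustered a second time without these genes, to see how the receptors were distributed among vessel types. Cluster 2 was named venous and clusters 5 and 7 arterial, by markers. Venous markers summed to 787 CPM in WT and 626 CPM in PIGinH11 in cluster 2, and capillary markers to 1118 and 1340 CPM. Cluster 2 also had UMIs of all 6 lymphatic markers in both libraries, with the highest lymphatic sums of the clusters (106 and 316 CPM). Whether it mixes venous with lymphatic nuclei was not tested. Among the clusters with more than 1 WT nucleus, clusters 1, 3 and 9 had the highest summed levels of capillary markers in both libraries and stayed without a name, as did cluster 6. Cluster 6 met 2 of 5 venous markers, EPHB4 and SELP. Its venous markers summed to 802 CPM in WT, with a UMI of each, and to 124 CPM in PIGinH11, with 4 of 5 without a UMI. Cluster 9 met 5 of 6 capillary naming markers. It stayed unnamed because its leading genes held the stellate marker PDGFRA and no capillary marker. Nuclei of all clusters come from the same 2 animals, and counts per cluster were small.

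KDR showed the widest range of the 4 genes. Cluster 3 had 721 CPM of KDR in WT and 527 CPM in PIGinH11, and cluster 1 had 432 and 308 CPM. Cluster 9, which held only 6 WT and 17 PIGinH11 nuclei, had 875 and 448 CPM. In venous cluster 2 it had 172 and 121 CPM, and in arterial cluster 5 it had 33 and 89.3 CPM. Arterial cluster 7 had no KDR UMI in either library, with an interval up to 48.9 CPM in WT and 62.3 CPM in PIGinH11. Among these clusters, KDR was highest where capillary markers were high and lowest in both arterial clusters, in each library, although the PIGinH11 intervals of clusters 2 and 5 overlap.

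FLT1 was also high in clusters 3, 1 and 6, with 2171, 1785 and 2057 CPM in WT and 2701, 2120 and 1665 CPM in PIGinH11. Cluster 9, which had the most capillary markers, had less FLT1, with 915 and 633 CPM. It was also lower in venous cluster 2 (988 and 803 CPM) and arterial cluster 5 (1188 and 900 CPM) and lowest in arterial cluster 7 (318 and 557 CPM). Cluster 6, where FLT1 was high, also had venous markers in WT, so a low FLT1 level is not read as a trait of venous nuclei. TEK was highest in clusters 6 and 3, with 1896 and 1455 CPM in WT and 1268 and 1131 CPM in PIGinH11. Both arterial clusters had less TEK, with 600 and 610 CPM in WT and 433 and 371 CPM in PIGinH11, as did cluster 9, with 239 CPM from 6 UMIs and 501 CPM from 19 UMIs. PTPRB had no such order. In WT, its levels ran from 904 to 1147 CPM in clusters 1, 2, 3, 5, 6 and 9, and arterial cluster 7 stood apart with 2175 CPM (interval 1855 to 2534). In PIGinH11 this cluster had 946 CPM, and clusters 1 and 5 had 1099 and 900 CPM.

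VEGFC, a ligand of the lymphatic receptor FLT4, was itself found in endothelial-like nuclei, and was highest in arterial cluster 5. Its level was 2230 CPM in WT and 1587 CPM in PIGinH11 for arterial cluster 5, and 1565 and 591 CPM for arterial cluster 7. Venous cluster 2 had 420 and 675 CPM, and cluster 3 had the lowest WT level, with 22.2 CPM against 271 CPM in PIGinH11.

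**Figure D4:**
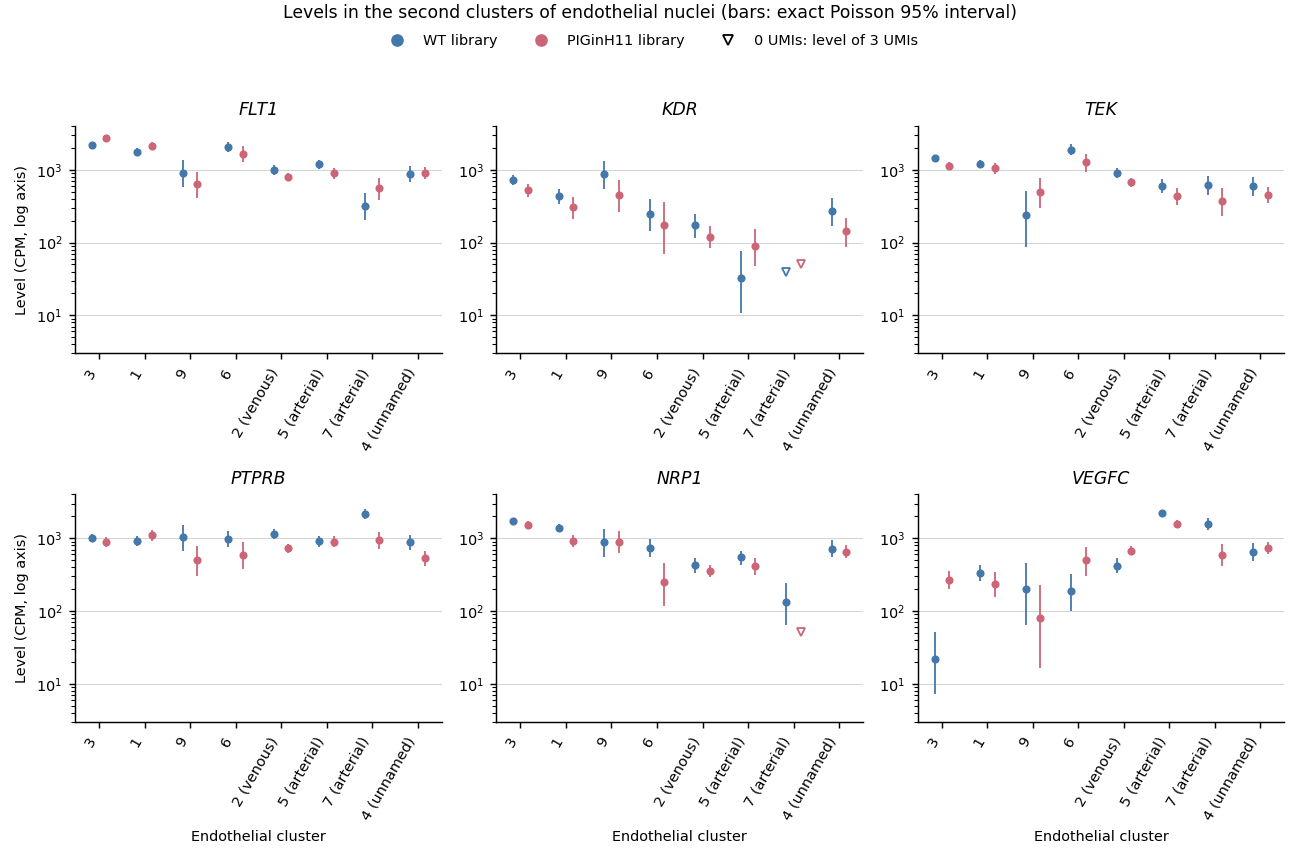
Levels of the 4 receptor-side genes, NRP1 and VEGFC in 8 clusters of endothelial nuclei, in CPM on a log axis, with 1 point per library and exact Poisson 95% intervals. Open triangles mark clusters without a UMI, drawn at the level of 3 UMIs. Clusters 8 and 10, with 1 WT nucleus each, are left out, and cluster 4 is the unnamed one with acinar RNA. KDR is highest in clusters 3, 1 and 9 and lacks a UMI in arterial cluster 7, whereas VEGFC is highest in arterial cluster 5.

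Between the libraries, 3 of the 4 receptor-side genes had a lower level in PIGinH11 endothelial-like nuclei. As a log2 ratio of PIGinH11 over WT, the difference was −0.54 for KDR (interval −0.80 to −0.28), −0.48 for TEK (interval −0.62 to −0.33) and −0.39 for PTPRB (interval −0.53 to −0.25). FLT1 had −0.08, with an interval of −0.19 to 0.03. The median over 5639 genes of this class was 0.04. None of the 6 members with enough UMIs in this class reached a 2-fold ratio in either direction, as 2.18% of all genes did upwards and 2.29% downwards. These ratios come from 1 pig each, and the interval does not cover the difference between any 2 pigs.

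The endothelial clusters had different weights in the libraries. Venous cluster 2 held 18.9% of the UMIs of the class in WT and 31.9% in PIGinH11, and cluster 1 held 19.9% and 12.9%. Within clusters with at least 20 KDR UMIs over both libraries (1, 2, 3, 4, 6 and 9), the KDR level was lower in PIGinH11, with log2 ratios such as −0.45 in cluster 3 (interval −0.83 to −0.09) and −0.49 in cluster 1 (interval −1.11 to 0.10). Of these, only the interval of cluster 3 lay clear of 0, and in arterial cluster 5, with 5 and 13 UMIs, the level was higher in PIGinH11. With equal weight for each cluster the ratios were −0.40 for KDR, −0.44 for TEK, −0.47 for PTPRB and 0.04 for FLT1. FLT1 was higher in PIGinH11 in cluster 3 (0.32, interval 0.13 to 0.50) and lower in arterial cluster 5 (−0.40, interval −0.74 to −0.07). PTPRB was also uneven, from −1.20 in arterial cluster 7 (interval −1.67 to −0.76) to 0.25 in cluster 1 (interval −0.10 to 0.59). Its intervals lay below 0 in clusters 2, 4, 6, 7 and 9 and included 0 in clusters 1, 3 and 5. Whether the clusters differ was not tested. The ratio for TEK turned to 0.08 under the UMI limit of 1300 that the methods print, which left only shallow nuclei, and that for PTPRB was −0.07 after thinning to 500 UMIs.

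**Figure D5:**
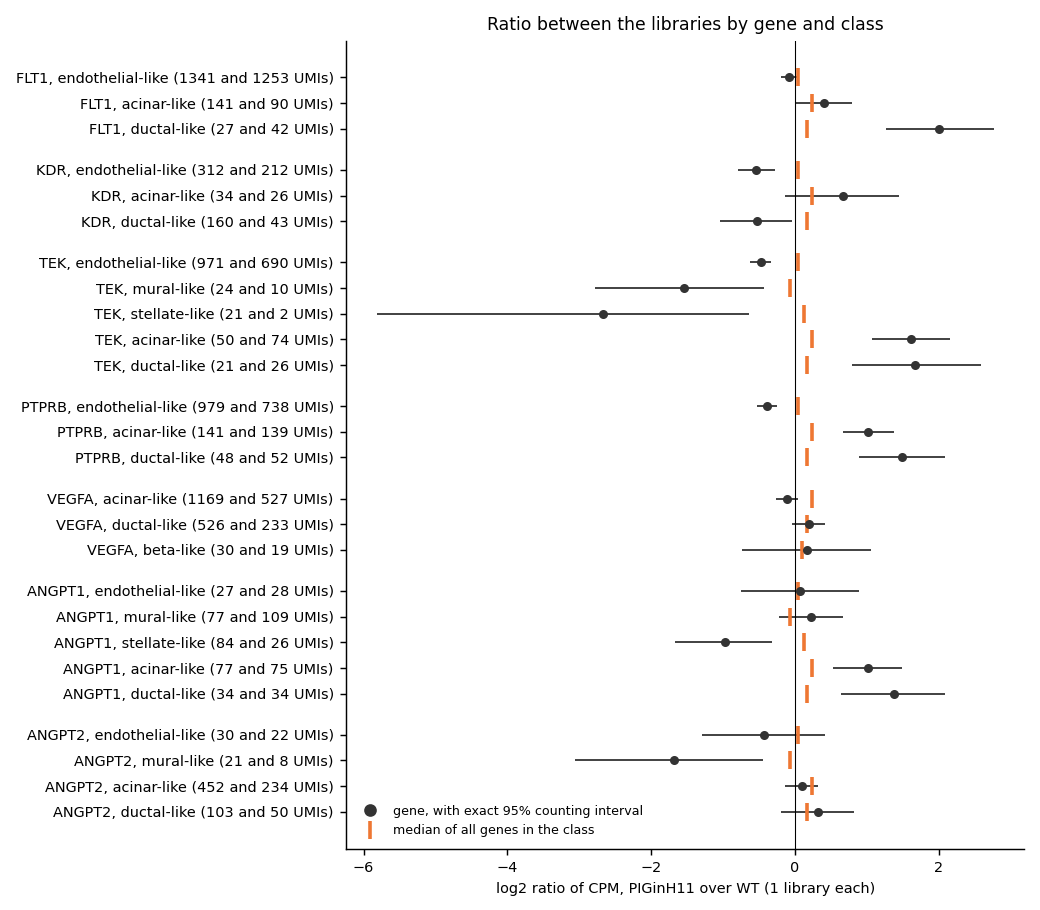
The log2 ratio of PIGinH11 over WT for each gene in the classes with at least 20 UMIs of it over both libraries, with exact 95% counting intervals and, as orange marks, the median of all genes in that class. KDR, TEK and PTPRB lie below the class median in endothelial-like nuclei, and FLT1 (−0.08) lies slightly below that median of 0.04. VEGFA lies near the class median in ductal-like and beta-like nuclei and below it in acinar-like nuclei. TEK and PTPRB lie above it in acinar-like and ductal-like nuclei.

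The ratios of the ligands differed by class. VEGFA had log2 ratios of 0.19 in ductal-like (interval −0.04 to 0.42), −0.11 in acinar-like (interval −0.26 to 0.04) and 0.17 in beta-like nuclei (interval −0.74 to 1.05), against class medians of 0.16, 0.23 and 0.10. ANGPT1 had 0.22 in mural-like nuclei (interval −0.22 to 0.66) and −0.97 in stellate-like nuclei (interval −1.67 to −0.32), where the median was 0.12. ANGPT2 had −1.68 in mural-like nuclei (interval −3.06 to −0.44), from 21 WT and 8 PIGinH11 UMIs, while its ratio was −0.43 in endothelial-like and 0.09 in acinar-like nuclei. TEK also had lower levels in PIGinH11 in mural-like nuclei, with −1.55 (interval −2.78 to −0.43) from 24 WT and 10 PIGinH11 UMIs, and in stellate-like nuclei, with −2.67 (interval −5.81 to −0.64) from 21 and 2 UMIs. Of the 24 WT mural-like UMIs of TEK, 10 came from 1 nucleus. In mural-like nuclei only ANGPT1 had enough UMIs for the 2-fold count and was not past it, where 2.65% of all genes were past it upwards and 6.01% downwards. In stellate-like nuclei the same held for ANGPT1, where these shares were 4.21% and 1.84%.

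In acinar-like nuclei, TEK, PTPRB and ANGPT1 were at least 2-fold higher in PIGinH11 (3.05-fold, 2.03-fold and 2.01-fold), 3 of 7 members where 16.6% of all genes were, and none was 2-fold lower, as 2.12% of all genes were. In ductal-like nuclei FLT1, TEK, PTPRB and ANGPT1 were at least 2-fold higher, 4 of 7 members where 12% of all genes were, and none was 2-fold lower (1.77% of all genes). These levels are low, at most 15.7 CPM, and all but ANGPT1 were set against the endothelial markers above. The median of the endothelial markers moved the same way in these classes. It went from 0.543% to 0.846% of their number per endothelial-like nucleus in acinar-like and from 0.587% to 0.984% in ductal-like nuclei. PECAM1 and CLEC14A in acinar-like and PECAM1 and RHOJ in ductal-like nuclei went the other way. This measure is taken per nucleus and relative to endothelial-like nuclei, unlike the CPM ratios. The part of the markers in these ratios was not tested. KDR in ductal-like nuclei had a log2 ratio of −0.53 (interval −1.05 to −0.04), which rested on cluster 11, with 47 WT and 2 PIGinH11 UMIs. Without this cluster KDR had 14.1 and 12.8 CPM, and the ratio was −0.13 (interval −0.68 to 0.40).

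Other genes of the pathway completed the picture of sources and targets. VEGFC was highest in endothelial-like nuclei, with 683 and 633 CPM. VEGFD, which like VEGFC binds FLT4, was highest in stellate-like nuclei, with 64.4 CPM in WT (44 UMIs) and 193 CPM in PIGinH11 (80 UMIs), a log2 ratio of 1.58 (interval 1.03 to 2.15). A UMI of it was found in 16.8% and 16.3% of these nuclei, and in 3.59% and 5.58% after thinning to 500 UMIs. ANGPT4, a further TEK ligand, was found in mural-like nuclei at 103 and 184 CPM and in stellate-like nuclei at 107 and 98.9 CPM, and had no UMI in endothelial-like nuclei. PGF, a ligand of FLT1, had 8 and 9 UMIs in all nuclei, too few to place it, and VEGFB was not analysed here.

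Of the other receptors, FLT4 and TIE1, the orphan partner of TEK, were highest in endothelial-like nuclei among the classes compared here, with 34.7 and 27.2 CPM and with 150 and 162 CPM. TIE1 also had 13.5 and 18.6 CPM in acinar-like nuclei (402 and 269 UMIs). Per nucleus this was 7.73% (interval 6.34% to 9.47%) and 7.53% (interval 6.13% to 9.29%) of the endothelial-like number. The highest of the 14 endothelial markers there stood at 3.92% and 6.38%, and the PIGinH11 interval of TIE1 includes the latter. Where these TIE1 UMIs came from was not tested. The co-receptor NRP1, which presents VEGFA to KDR, was shared by endothelial-like (969 and 699 CPM), mural-like (1876 and 1019 CPM), stellate-like (881 and 1044 CPM) and macrophage-like nuclei (1246 and 1537 CPM). Its log2 ratio was −0.47 in endothelial-like nuclei (interval −0.62 to −0.32), close to those of KDR and TEK, and 0.25 in stellate-like nuclei (interval 0.06 to 0.43). NRP2 was higher in ductal-like (362 and 287 CPM) than in endothelial-like nuclei (186 and 172 CPM). Within the ductal-like class, NRP2 stood at 345 and 413 CPM in WT clusters 3 and 5 and at 303 and 293 CPM in the same PIGinH11 clusters. In cluster 11, where WT KDR was highest, NRP2 stood at only 19.4 CPM in WT (10 UMIs) and 23.2 CPM in PIGinH11 (3 UMIs).

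Lists of pathway genes showed few differences of 2-fold between the libraries. Of 26 listed genes that carry the signal below the receptors, 18 had enough UMIs in endothelial-like nuclei, and none passed 2-fold in either direction, where 2.18% of all genes of the class were higher and 2.29% lower, so that a count of 0 is near the background. Their median log2 ratio was 0.09, from −0.73 for the adaptor NCK1 to 0.77 for its paralog NCK2. Of 11 endothelial genes known to respond to VEGF, 8 had enough UMIs, none passed 2-fold, and the median was 0.18, with UNC5B, a netrin receptor, highest at 0.64 and FLT4 lowest at −0.35. The median of all genes in this class was 0.04.

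Hypoxia is the best-known inducer of VEGFA, and its genes were followed in the classes that hold most VEGFA. In acinar-like nuclei, 16.6% of all genes were at least 2-fold higher in PIGinH11 and 2.12% lower, with a median log2 ratio of 0.23. All 8 listed oxygen-sensing genes had enough UMIs there, none passed 2-fold, and they ran from −0.53 for EGLN1, an oxygen-dependent prolyl hydroxylase, to 0.71 for HIF3A. Of 16 hypoxia targets, 14 had enough UMIs, and the only one past 2-fold was DDIT4, an inhibitor of mTORC1, with 146 CPM in WT and 66.1 CPM in PIGinH11 (log2 ratio −1.14), while NDRG1 was highest with 0.72. In ductal-like nuclei, where the class shares were 12% and 1.77% and the median was 0.16, 6 of 8 oxygen-sensing genes had enough UMIs, 1 of them past 2-fold in each direction. HIF1A, the oxygen-regulated subunit itself, had 120 CPM in WT and 59 CPM in PIGinH11 (log2 ratio −1.03, interval −1.25 to −0.80), and HIF1AN, its asparagine hydroxylase, had 16.2 and 32.5 CPM (log2 ratio 1.00, interval 0.62 to 1.37). None of the 11 hypoxia targets with enough UMIs there passed 2-fold, from −0.47 for P4HA1 to 0.61 for PDK1.

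Across 24 points (12 classes in each of 2 libraries), the genes whose log2(CPM + 5) was most like that of each member were named, out of 11891 genes. The points share libraries and depth, so that Pearson's r is a description. FLT1 was most like ERG (0.948), MMRN2 (0.936) and ARHGEF15 (0.925), KDR most like SOX18 (0.936), CLDN5 (0.918) and TAL1 (0.916), TEK most like ROBO4 (0.918), DUSP1 (0.872) and ACVRL1 (0.868), and PTPRB most like EFNB2 (0.888), MMRN2 (0.876) and ADGRL4 (0.874). ERG and ROBO4 were themselves naming markers of the class. ANGPT1 was most like LZTS1 (0.931), the mural marker ACTA2 (0.926) and COL12A1 (0.919). The most similar genes were less close for ANGPT2, with DAPK2 (0.815), TPX2 (0.776) and TXNL4A (0.766), and least close for VEGFA, with NKX6-1 (0.699), PTPRF (0.694) and EFNA4 (0.657).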

How the data were processed

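One piece of pancreas from 1 WT and 1 PIGinH11 pig was analysed. The files that the authors deposited hold raw UMI counts per gene and barcode, made by the authors with Cell Ranger on Sscrofa11.1 (v3.1.0 per the methods, v5.0.0 per the file headers), before their doublet removal and filters. The WT matrix had 13619 barcodes with a median of 3216 UMIs, and the PIGinH11 matrix 14964 barcodes with 1181.5 UMIs.

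The limits on a barcode were 270 to 3700 genes, a UMI total below 13000 and a mitochondrial share below 10%. A UMI limit of 1300 is printed in the methods, and only 1996 WT and 8239 PIGinH11 barcodes would meet it. Doublets were scored against simulated pairs, and a share of 0.8% for each 1000 barcodes, those with the highest scores, was removed (1484 and 1791 barcodes), which left 87.5% and 87.9%. After scaling to 10000 UMIs and log transformation, 2000 variable genes, without the genes reported here, ribosomal protein and mitochondrial genes, gave 30 principal components. Harmony and Louvain clustering (resolution 1, igraph v0.11.9, numpy v2.4.6, random seed 0) followed, and endocrine, immune and endothelial nuclei were clustered again on 15 components.

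A cluster of 20 or more nuclei was named by at least 3 markers, each detected in 5% or more of the nuclei and raised by 1 or more on the log2 scale. Most markers come from the study's own marker file, chosen on the same libraries, and in the second clusterings those best matched by acinar markers were left unnamed.

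UMIs were summed per class and library and scaled to 1000000 (CPM). Intervals are exact 95% intervals: Poisson for a level, Clopper–Pearson for a share and conditional binomial for a ratio of counts. Where a limit is given for a count of 0, it is the upper end of the exact interval, and figures draw such counts at the level of 3 UMIs. Ratios between libraries and the counts of genes past 2-fold need 20 UMIs or more per library in the class (single ratios of ligands and receptors needed 20 over both libraries). The class described for each gene is that with the highest CPM over both libraries, with at least 20 UMIs. All 7 genes are named. Of the pathway lists, the highest and lowest genes and all other ligands and receptors are named, and beside them genes past 2-fold. The most similar genes needed at least 100 UMIs. The members and lists were chosen with earlier results of these data known.

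On simulated counts with 200 changed genes, 100% of the changed genes in endothelial-like (5639 genes), 99.5% in ductal-like (11157 genes) and 100% in acinar-like nuclei (15540 genes) had the simulated direction. This holds for the simulated counts only. The spread between pigs could not be estimated and is not covered by it.

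The alternatives were no doublet removal, 1.6% for each 1000 barcodes, the printed limit of 1300 UMIs, at least 500 genes, no Harmony, resolution 2, the reported genes among the clustering genes, the mean over nuclei, thinning to 500 UMIs, CPM without digestive enzyme, mitochondrial and ribosomal protein genes, subtraction of free RNA and median-of-ratios scaling. Counting the acinar-marked endothelial clusters as endothelial-like, equal weight of the endothelial clusters, and KDR without ductal cluster 11 were added after seeing the data.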

Additional observations from a re-analysis of the deposited data

Results flagged for a closer look

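For 5 genes, the log2 ratio of PIGinH11 over WT had opposite signs in different classes, with each 95% counting interval clear of 0, among classes with at least 20 UMIs of the gene in each library. With 1 library per group, the difference between the classes was not tested for any of them. TEK had −0.48 in endothelial-like, 1.61 in acinar-like and 1.67 in ductal-like nuclei. PTPRB had −0.39, 1.02 and 1.48 in the same classes. NRP1 had −0.47 in endothelial-like and −0.88 in mural-like nuclei, against 0.25 in stellate-like, 1.25 in acinar-like and 1.45 in ductal-like nuclei. ANGPT1 had −0.97 in stellate-like, 1.01 in acinar-like and 1.37 in ductal-like nuclei. NRP2 had 0.41 in acinar-like and −0.34 in ductal-like nuclei, where it was abundant. These signs are taken against 0, while the class median was 0.23 in acinar-like, 0.16 in ductal-like and 0.12 in stellate-like nuclei. The intervals of NRP2 in acinar-like (0.03 to 0.78) and of NRP1 in stellate-like nuclei (0.06 to 0.43) include the class median. For TEK, PTPRB, NRP1 and ANGPT1 the positive values in acinar-like and ductal-like nuclei come from levels of at most 15.7 CPM. The median of the endothelial markers, though not every marker, was also higher there in the PIGinH11 library. In acinar-like nuclei it was 0.846% against 0.543% of their number per endothelial-like nucleus.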

How the results depend on the processing

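With 1 library per group, every value rests on 1 pig, and depth limits the values of small classes and of single clusters. No paired analysis was possible because each group has 1 library. Of 160 alternative values for a gene in its leading class over all other nuclei (log2), 160 kept the sign, and 52 lay outside the counting interval of the reported value. They ranged from 5.87 to 9.04 for FLT1, 4.93 to 6.68 for KDR, 5.86 to 9.15 for TEK, 5.19 to 8.70 for PTPRB, 0.65 to 1.28 for VEGFA, 5.77 to 7.99 for ANGPT1 and 1.83 to 5.00 for ANGPT2. For each value outside, the cause was not tested beyond how the alternative is made. The mural-like class was not found under the limit of 1300 UMIs or the double doublet rate, so ANGPT1 and ANGPT2 have no value there.

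The values outside the interval follow by setting. Without doublet removal, FLT1 had 7.40 in WT and 5.87 in PIGinH11, TEK 7.71 and 5.92, PTPRB 6.97 and 5.23, and ANGPT1 6.64 in WT. At double the doublet rate, FLT1 had 8.65 and 7.81, KDR 6.68 and 6.25, TEK 9.15 and 7.27, and PTPRB 7.69 and 6.25. Under the limit of 1300 UMIs, FLT1 had 6.82 and 5.90, TEK 6.93 and 5.86, PTPRB 6.12 and 5.19, and KDR 5.71 in WT. At resolution 2, FLT1 had 7.58 and 6.32 and TEK 7.69 and 5.93. As a mean over nuclei, PTPRB had 6.97 and 5.37, and in PIGinH11 FLT1 had 6.29, TEK 6.06 and ANGPT1 5.77. Thinned to 500 UMIs, PTPRB had 6.87 and 5.47 and ANGPT1 6.48 and 5.85, TEK had 7.74 in WT, and in PIGinH11 FLT1 had 6.27, KDR 4.93 and ANGPT2 2.89. With free RNA subtracted, in WT FLT1 had 9.04, KDR 6.37, PTPRB 8.70, ANGPT1 7.99 and ANGPT2 5.00, and in PIGinH11 TEK had 7.42 and VEGFA 1.28. With the acinar-marked endothelial clusters included, FLT1 had 8.30 and 7.28, TEK 8.46 and 6.80, and PTPRB 7.65 and 5.99.

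Of 91 alternative log2 ratios of PIGinH11 over WT, 5 changed sign, namely 3 for FLT1, 1 for TEK and 1 for ANGPT1 in mural-like nuclei (−0.02 as a mean over nuclei). Of these 3 genes, only TEK had a reported value with an interval clear of 0. Beside the TEK value, 11 values lay outside the interval of the reported value, those of FLT1 included. In endothelial-like nuclei under the limit of 1300 UMIs, TEK turned to 0.08, FLT1 had 0.38, KDR −0.28 and PTPRB −0.13, and ductal-like VEGFA had 0.42. At double the doublet rate, FLT1 had 0.08, TEK −0.32 and PTPRB −0.19. Thinned to 500 UMIs, FLT1 had −0.38, KDR −1.05 and PTPRB −0.07, and with equal weight of the endothelial clusters FLT1 had 0.04. The leading class kept rank 1 in 155 of 160 alternatives. Ductal-like VEGFA fell to rank 2 without doublet removal in PIGinH11 and, in WT, to rank 2 at double the doublet rate and after thinning and to rank 3 under the limit of 1300 UMIs. Mural-like ANGPT2 in PIGinH11 took rank 2 as a mean over nuclei.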
